A study of Macaca mulatta with 10 samples.

Results

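The comparison described here set the centre of differentiating colonies against their periphery in ORMES6, a rhesus macaque line of embryonic stem (ES) cells. The sample titles gave its members, IVDS2-C replicates 1 and 2 for the centre and IVDS2-P replicates 1 and 2 for the periphery, which are 4 of the 10 Affymetrix rhesus macaque arrays of the study. The other 6 arrays were undifferentiated ES cells, whole cultures at in vitro differentiation stage 2 (IVDS2) and cultures at stage 3 (IVDS3), with 2 arrays each. They entered the fit only through the estimate of the spread, and they served as a separate reference for the genes found. Per the labels' protocols, the ES cells grew on mouse embryonic fibroblast feeders with serum replacement and basic fibroblast growth factor, and hepatic foci were obtained by growing them together with hESdF, cells resembling fibroblasts that had been derived from human ES cells. All samples are of this 1 cell line, and no label names a genetic change. The labels do not say how centre and periphery were separated, how many colonies were pooled, or whether the 2 arrays of a group came from separate cultures, so p-values measure only the spread between these samples.

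When pluripotent cells differentiate in a colony, cells at the middle and at the edge can take different fates, because cell density, contact and diffusion of signals such as BMP, WNT and their secreted inhibitors differ with position. Pluripotent cells are held in that state by a core of transcription factors that includes OCT4 (POU5F1) and SOX2. Cells leaving it towards non-neural ectoderm, amnion or trophoblast switch on GATA3, TFAP2 factors and keratins, and cells leaving it towards liver pass through definitive endoderm marked by SOX17 and FOXA2 before they make AFP and other plasma proteins. The series title calls the hepatic differentiation in this system dependent on topology, and the comparison of the 2 areas addresses that question.

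Each value below is a log2 expression value relative to the median of the same probe set over the 10 arrays. For a gene with several probe sets it is the mean of their values. It shows where an array stood for that gene and cannot be compared between genes. A group's arrays are given with replicate 1 first. Differences are centre minus periphery on the log2 scale ± standard error (SE) from limma, with 2 arrays per area, and a gene was called at a Benjamini-Hochberg adjusted p under 0.05 over the 13191 genes tested. Such arrays read the RNA of all cells in a sample, so fewer cells of a type and less RNA per cell cannot be told apart.

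Of the 13191 genes, 1265 were called between centre and periphery (9.59%), 744 of them higher in the centre (5.64%) and 521 lower (3.95%). These shares are the background beside which the counts of every gene list below are to be read. The differences in favour of the centre were larger. Among the higher genes the median difference was 1.10, and 421 were at least 2-fold (3.19% of all genes), 121 at least 4-fold and 40 at least 8-fold higher. Among the lower genes the median size was 0.74, and the counts at these folds were 128 (0.97%), 17 and 1. Over single probe sets, 2582 of 44210 were called (5.84%), 1700 of them higher in the centre. The 2 centre arrays lay above both periphery arrays for 25.4% of all genes and below both for 35.5%, so arrays that do not overlap are common and are read only together with the test.

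The 2 centre arrays were not equally far from the periphery. Centre replicate 2 lay beyond centre replicate 1 for 648 of the 744 higher genes (87.1%) and for 485 of the 521 lower genes (93.1%), whereas over all genes it was the higher of the 2 for 45.5%. The counts moved with single arrays of either area. They rose without centre replicate 1 and fell without centre replicate 2 or either periphery array. The part of the uneven centre replicates in these changes was not tested. The call rested on all 10 arrays too, since it fell to 849 genes without either IVDS3 array. A core of 283 genes, 241 higher and 42 lower in the centre, was called whichever of the 10 arrays was left out. These genes are called stable below, and for other called genes the arrays whose removal ended the call are given.

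**Figure D1:**
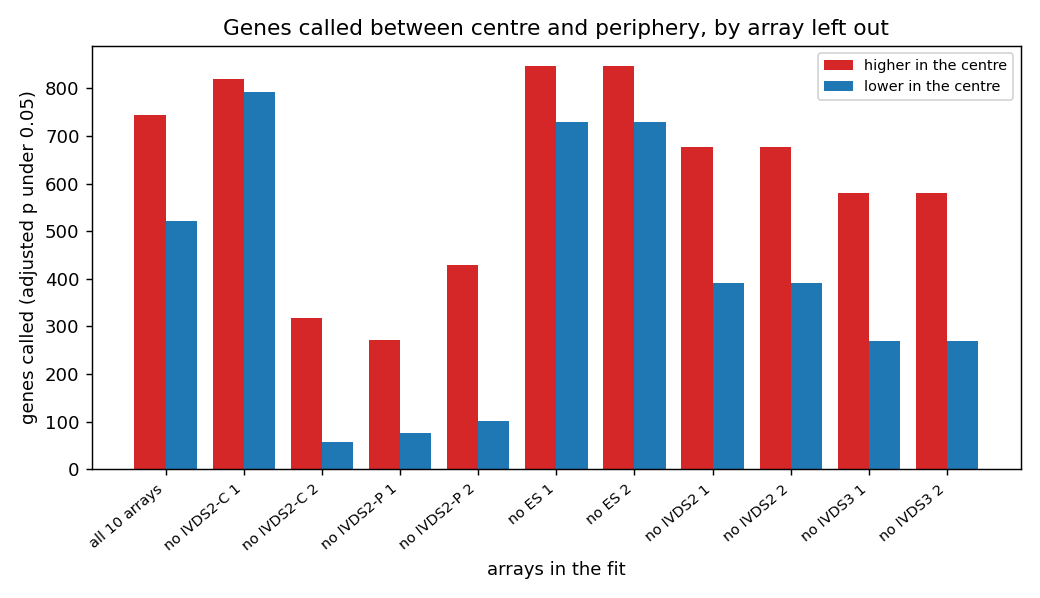
Number of genes called higher (red) and lower (blue) in the colony centre than in the periphery with all 10 arrays and after leaving out each array in turn (x axis, the array left out). The counts with all arrays were 744 and 521, and leaving out centre replicate 2 or either periphery array reduced the lower genes more than the higher ones.

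The genes with the largest excess in the centre belonged to several kinds. They included the interferon-induced IFIT1, IFIT3, IFI27 and CXCL10, the epithelial transcription factors BNC1, ZNF750 and KLF5, the GABA receptor subunit GABRP, the xenobiotic-metabolising cytochrome CYP1A1, PLAC8, C5H4orf19 and the circadian and stress-linked repressor BHLHE40. GABRP read 2.02 and 2.73 on the centre arrays and -2.22 and -2.40 on the periphery arrays (25.8-fold, 4.69 ± 0.23, adjusted p = 7.07e-05), and BNC1 read 1.97 and 2.16 on the centre arrays and -2.77 and -2.47 on the periphery arrays (25.7-fold, 4.68 ± 0.30, adjusted p = 0.000183). The ES arrays, at -4.32 and -3.87 for GABRP and -3.16 and -3.26 for BNC1, lay below both periphery arrays for each gene, and whole IVDS2 cultures lay between the 2 areas. PLAC8, a small cysteine-rich protein, read 3.62 and 3.71 on the centre arrays and -0.54 and -0.25 on the periphery arrays, and the centre replicates were nearly equal (16.7-fold, 4.06 ± 0.20, adjusted p = 7.07e-05). ZNF750, a regulator of epidermal differentiation, read 2.37 and 4.09 in the centre and -0.65 and -0.82 in the periphery (15.6-fold, 3.96 ± 0.43, adjusted p = 0.00126), with IVDS3 higher still at 6.68 and 6.70. BHLHE40 read 2.49 and 4.15 on the centre arrays and -0.59 and -0.23 on the periphery arrays (13.3-fold, 3.73 ± 0.45, adjusted p = 0.00213), and C5H4orf19 showed 4.04 ± 0.32 (adjusted p = 0.000329). CYP1A1 read 1.07 and 3.59 on the centre arrays and -2.12 and -1.69 on the periphery arrays. Its difference of 4.23 ± 0.67 (adjusted p = 0.00644) was not called without periphery replicate 1 (adjusted p = 0.0565) or with only the 4 arrays compared.

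The genes with the largest deficit in the centre included POU5F1, the secreted phosphoprotein SPP1, the mesenchymal transcription factor TWIST1 and the secreted WNT inhibitors SFRP1 and SFRP2. RGS20, a regulator of G-protein signalling, read -1.10 and -1.49 on the centre arrays and 1.83 and 1.33 on the periphery arrays (7.32-fold lower, -2.87 ± 0.28, adjusted p = 0.000895). NPTX2, a secreted neuronal pentraxin, read -2.08 and -2.44 against 0.39 and 0.85 (-2.88 ± 0.34, adjusted p = 0.00199), the membrane protein TMEM74 -0.06 and -0.72 against 1.86 and 2.43 (-2.54 ± 0.28, adjusted p = 0.00127), and the orphan receptor GPR176 -1.02 and -1.90 against 1.25 and 0.78 (-2.48 ± 0.27, adjusted p = 0.00127). These 4 genes were stable. DPPA4, given with the pluripotency genes below, BEND4 (-2.55) and OTUD3 (-2.55) were also among the 12 largest falls. BEND4 and OTUD3 lost their calls without centre replicate 2 or either periphery array (adjusted p 0.0549 to 0.109 and 0.0859 to 0.147). SPP1 read -0.41 and -2.41 on the centre arrays and 2.19 and 0.84 on the periphery arrays. Its 2 arrays differed widely in each area, the adjusted p was 0.0488, and removal of any 1 of the 8 arrays outside ES except centre replicate 1 ended the call (adjusted p 0.07 to 0.35).

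**Figure D2:**
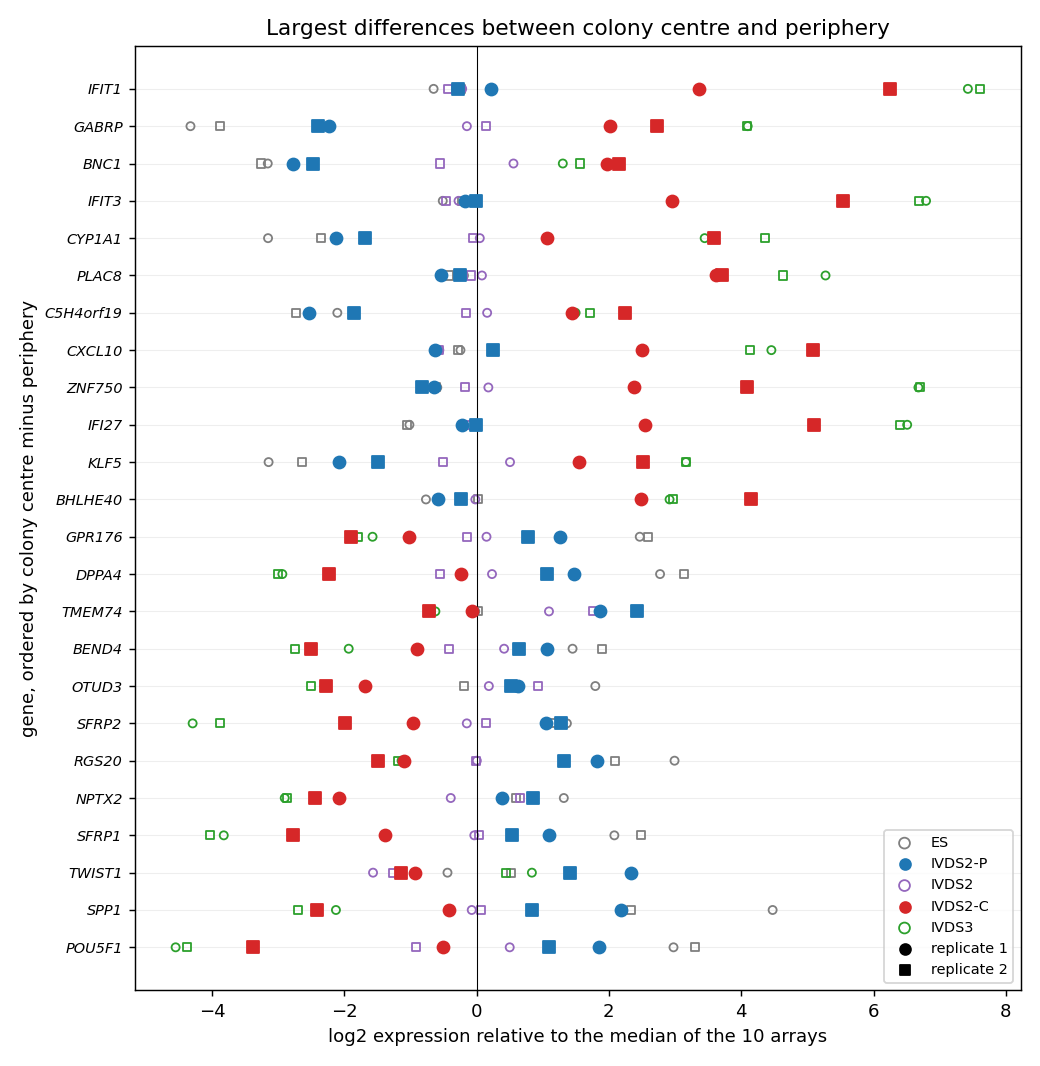
Log2 expression relative to the median of each probe set over the 10 arrays (x axis). The genes are the 12 largest rises and 12 largest falls from periphery to centre among called genes whose arrays did not overlap. Filled symbols are the centre (red) and periphery (blue) arrays, open symbols the ES, whole IVDS2 and IVDS3 arrays, and circles and squares replicates 1 and 2. Centre and periphery did not overlap by the rule that chose the genes, and for GABRP the periphery lay at -2.22 and -2.40 and the centre at 2.02 and 2.73.

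Genes of trophoblast and amnion, the extraembryonic epithelia, were the list with the largest median difference. Of 23 measured members 18 were higher in the centre and 0 lower, and the list median was 1.53 beside -0.03 over all genes. GATA3, a transcription factor of trophoblast and surface ectoderm, read 1.21 and 1.71 on the centre arrays and -2.49 and -1.72 on the periphery arrays (11.8-fold, 3.57 ± 0.33, adjusted p = 0.000759). The LIM-homeobox factor ISL1, which marks amnion and also cardiac progenitors, read 1.09 and 1.62 against -2.44 and -1.66 (10.6-fold, 3.41 ± 0.25, adjusted p = 0.000278), and the TEAD cofactor VGLL1 read 0.63 and 1.20 against -2.83 and -1.90 (9.72-fold, 3.28 ± 0.29, adjusted p = 0.000598). The ES arrays lay below both periphery arrays for GATA3 and VGLL1 and between them for ISL1, and for all 3 genes both centre arrays lay above both whole-culture arrays. WNT6, a secreted WNT ligand of epithelia, rose 10.96-fold from periphery to centre (3.45 ± 0.31, adjusted p = 0.0007) and KRT7, a keratin of simple epithelia, 7.92-fold (2.99 ± 0.34, adjusted p = 0.00164). All of these were stable, as were 10 members of the list in total, and 11 members were called without periphery replicate 2. HAND1, a transcription factor of trophoblast and early heart, read 1.87 and 0.83 on the centre arrays and -0.25 and -0.05 on the periphery arrays. It was called (1.50 ± 0.27, adjusted p = 0.0109), but not without periphery replicate 1 (adjusted p = 0.0847). Not all trophoblast genes were called, since the trophectoderm factor CDX2 differed by 0.08 (adjusted p = 0.78) and TEAD4 by 0.04 (adjusted p = 0.902). CDX2 read between -0.22 and 0.21 on all 10 arrays. On centred values an undetected gene cannot be told from an unchanged one. CDX2 and TEAD4 were chosen after their values were seen.

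Genes of the surface and epidermal ectoderm followed the same direction, with 11 of 16 measured members higher in the centre, 0 lower and a median of 1.16. TP63, the transcription factor of basal stratified epithelium, read 0.77 and 0.91 on the centre arrays and -1.53 and -1.44 on the periphery arrays (5.03-fold, 2.33 ± 0.14, adjusted p = 0.000119), and its 6 probe sets are averaged in that value. KLF5 read 1.54 and 2.51 against -2.08 and -1.49 (14.04-fold, 3.81 ± 0.39, adjusted p = 0.00104), the 14-3-3 protein SFN 1.02 and 2.17 against -1.21 and -1.06 (6.65-fold, 2.73 ± 0.31, adjusted p = 0.00148), and the desmosome-linked PERP 0.58 and 1.14 against -1.52 and -1.48 (5.13-fold, 2.36 ± 0.25, adjusted p = 0.00113). The 4 genes were stable. The desmosomal cadherin DSG3 was 5.1-fold higher in the centre (adjusted p = 0.00816), a call lost without periphery replicate 1 (adjusted p = 0.0627). The count of called list members was 7 without centre replicate 2 and 5 without periphery replicate 1. Of 17 measured genes of neural crest and placode 5 were higher in the centre and 1, TWIST1, was lower, with 2 higher without centre replicate 2 and 1 without periphery replicate 1. The homeobox factor DLX3 read 1.26 and 1.09 on the centre arrays and -1.04 and -0.45 on the periphery arrays (1.92 ± 0.33, adjusted p = 0.00865), the homeobox factor MSX2 differed by 1.28 ± 0.25 (adjusted p = 0.0151) and the AP-2 factor TFAP2B by 1.91 ± 0.19 (adjusted p = 0.000945). Of these only TFAP2B was stable, DLX3 not being called without periphery replicate 1 (adjusted p = 0.0753) and MSX2 not without centre replicate 2 or periphery replicate 1 (adjusted p 0.0701 to 0.109).

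Cell-junction genes of epithelia separated the areas in 1 direction. Of 27 measured members 16 were higher in the centre and 0 lower, with a median of 0.67, and the count was 9 without centre replicate 2 and 10 without periphery replicate 1. The tight-junction claudin CLDN7 read 0.08 and 0.44 on the centre arrays and -2.04 and -1.52 on the periphery arrays (4.12-fold, 2.04 ± 0.30, adjusted p = 0.00438). RAB25, a GTPase of epithelial vesicle traffic, read 0.33 and 0.88 against -1.95 and -1.37 (4.79-fold, 2.26 ± 0.28, adjusted p = 0.0023), and P-cadherin, CDH3, 0.06 and 0.20 against -1.84 and -1.23 (3.17-fold, 1.66 ± 0.22, adjusted p = 0.00287). EPCAM, the epithelial adhesion molecule that ES cells also make, was 2.02-fold higher in the centre (1.01 ± 0.14, adjusted p = 0.0036). In the periphery EPCAM read -0.92 and -0.74, below both ES arrays (-0.35 and -0.09). E-cadherin, CDH1, was also below the ES arrays (-0.72 and -0.0032) in the periphery, at -1.33 and -0.96, with -0.04 and 0.15 in the centre. Its call (1.20 ± 0.24, adjusted p = 0.0172) was lost without centre replicate 2 or periphery replicate 1 (adjusted p 0.123 to 0.124), whereas those of CLDN7, RAB25, CDH3 and EPCAM were stable.

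Keratins, the intermediate filaments of epithelia, were called higher in the centre for 4 of 11 measured genes and lower for 0. KRT19 read -0.17 and 0.17 against -1.76 and -1.34 (2.92-fold, 1.55 ± 0.20, adjusted p = 0.00252) and KRT16, a keratin of stratified epithelium, 0.64 and 1.14 against -0.42 and -0.34 (2.41-fold, 1.27 ± 0.17, adjusted p = 0.00275), although the 4 KRT16 probe sets did not all point the same way. KRT8 was higher (1.19 ± 0.23, adjusted p = 0.0162, lost without centre replicate 2 or periphery replicate 1, adjusted p 0.0886 to 0.11). KRT18, the usual partner of KRT8, was not called and pointed the other way. It read 0.14 and -0.04 in the centre and 0.63 and 0.47 in the periphery (-0.50 ± 0.15, adjusted p = 0.077). Whole IVDS2 cultures lay above both centre arrays for KRT8 (0.50 and 0.97) and KRT19 (0.39 and 0.63). For both genes limma called the periphery below whole cultures (adjusted p = 0.0116 and 0.0108) and did not call the centre against them (adjusted p = 0.119 and 0.169). For KRT7 and KRT16 both centre arrays lay above both whole-culture arrays.

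**Figure D3:**
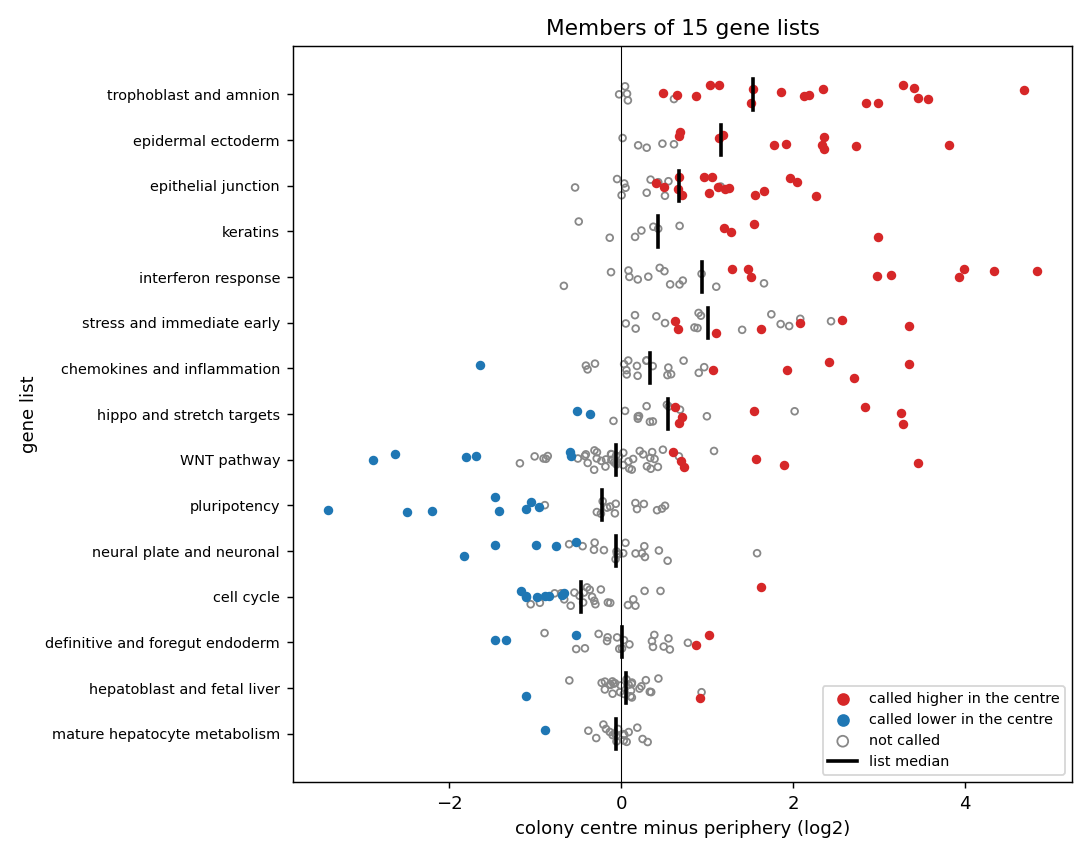
Centre minus periphery difference (log2, x axis) of each measured member of 15 gene lists. Red and blue points are genes called higher and lower in the centre, open points were not called, and black bars are list medians. The trophoblast and amnion (median 1.53) and epidermal lists (median 1.16) lie to the right, pluripotency (median -0.23) and cell cycle genes (median -0.47) extend to the left, and the hepatic lists centre near 0.

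Interferon-induced genes were higher in the centre for 9 of 23 measured members and lower for 0, with a median of 0.93. These genes are switched on by type I and II interferons through STAT and IRF factors and restrict viral replication. IFIT1 read 3.36 and 6.25 on the centre arrays and 0.22 and -0.29 on the periphery arrays (28.6-fold, 4.84 ± 0.71, adjusted p = 0.00449). IFI27 read 2.54 and 5.10 against -0.21 and -0.0022 (15.2-fold, 3.93 ± 0.61, adjusted p = 0.00582), and the T-cell chemokine CXCL10 2.50 and 5.08 against -0.63 and 0.24 (15.8-fold, 3.98 ± 0.66, adjusted p = 0.0075). The 2 centre arrays differed by more than 2 on the log2 scale for each of the 3 genes, with replicate 2 the higher. IFIT1 and IFIT3 (4.33 ± 0.63, adjusted p = 0.00434) were stable, while IFI27 and CXCL10 were not called without periphery replicate 1 (adjusted p = 0.0501 and 0.0663). The number of members called was 16 without centre replicate 1, 2 without periphery replicate 1, 5 without periphery replicate 2 and 0 with only the 4 arrays compared. In the whole IVDS2 cultures IFIT1 read -0.22 and -0.43 and CXCL10 -0.56 and -0.56, level with the periphery. In IVDS3 IFIT1 read 7.43 and 7.61 and all 23 members were called higher than in whole IVDS2 cultures, with a list median of 3.70. UBE2L6, the conjugating enzyme for the interferon-induced modifier ISG15, was chosen after its values were seen because it went the other way between the areas. It read -1.78 and -1.35 on the centre arrays and 0.14 and -0.14 on the periphery arrays (-1.56 ± 0.19, adjusted p = 0.00213), although IVDS3 at 2.11 and 1.93 exceeded whole IVDS2 cultures.

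Of 24 measured genes of chemokines and inflammation 5 were higher in the centre and 1 lower, beside 5.64% and 3.95% of all genes. The list median was 0.33. Between IVDS3 and whole IVDS2 cultures 9 of the 24 were higher and 4 lower, with a median of 0.39. IL6, an inflammatory cytokine, read 2.06 and 2.13 on the centre arrays and -0.39 and -0.24 on the periphery arrays (5.31-fold, 2.41 ± 0.18, adjusted p = 0.000278). Its 6 other arrays lay between -0.19 and 0.79, so the centre stood above every other group. IL1B behaved alike, at 1.50 and 1.82 in the centre and -0.27 and -0.26 in the periphery (3.8-fold, 1.93 ± 0.13, adjusted p = 0.000252), with 0.01 and -0.06 in IVDS3. The neutrophil chemokine CXCL8 read 2.26 and 3.89 on the centre arrays and -0.35 and -0.20 on the periphery arrays (10.2-fold, 3.35 ± 0.43, adjusted p = 0.00252), and IVDS3 lay between at 0.76 and 0.73. IL6, IL1B and CXCL8 were stable. CCL20 was 6.55-fold higher (adjusted p = 0.0473), but ES replicate 2 read 2.28, as high as the centre (1.35 and 2.36), and the call was lost on leaving out any 1 of 5 arrays (adjusted p 0.0776 to 0.32), namely centre replicate 2, either periphery array or either IVDS3 array. The member lower in the centre was the adhesion receptor VCAM1, at -0.40 and -1.04 against 1.34 and 0.51 (-1.65 ± 0.36, adjusted p = 0.0242), not called without centre replicate 2 or periphery replicate 1 (adjusted p 0.156 to 0.188). The count of higher members was 9 without centre replicate 1.

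**Figure D4:**
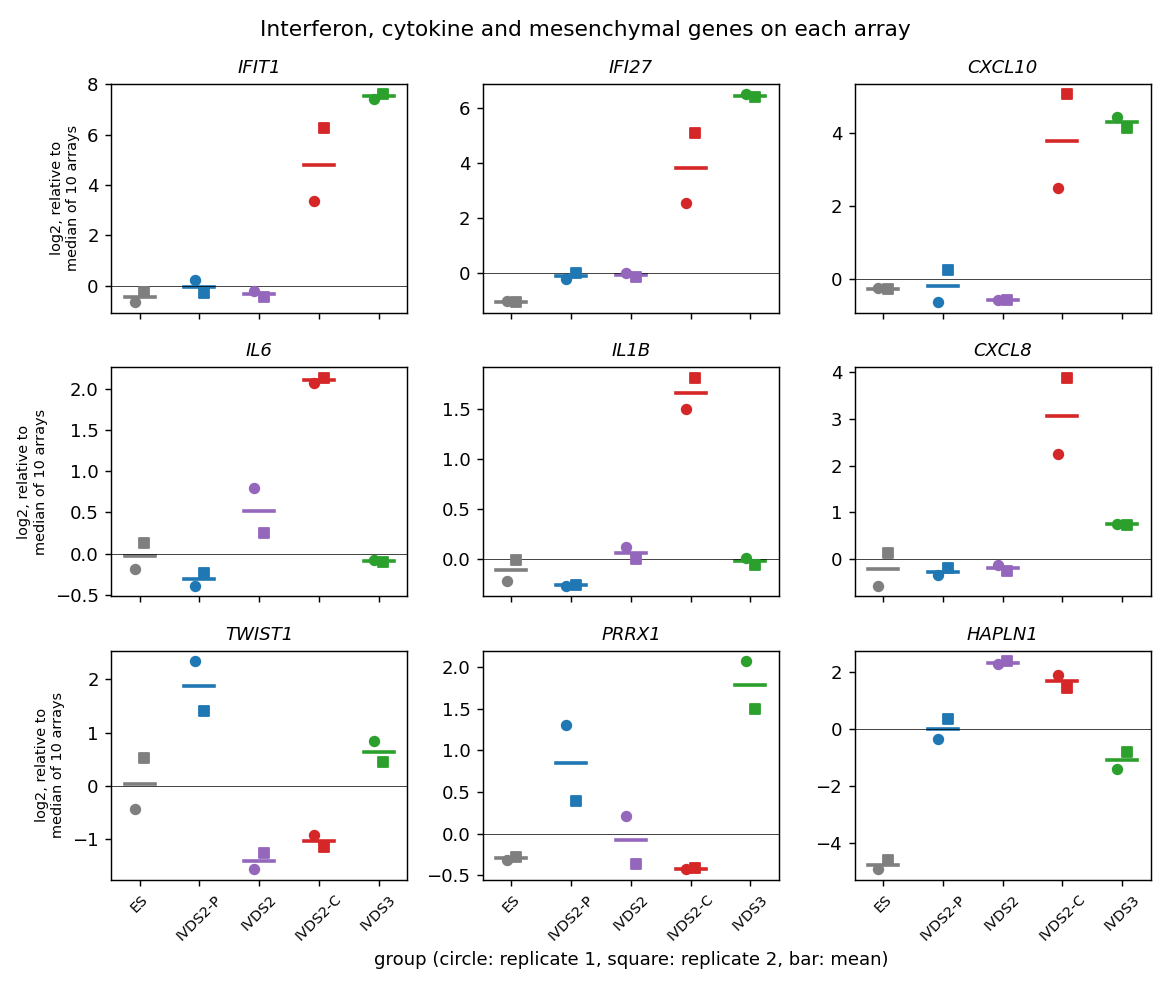
Log2 expression relative to the median of each probe set over the 10 arrays (y axis) of 9 genes in the 5 groups (x axis). Replicate 1 is a circle, replicate 2 a square and the mean a bar. IFIT1, IFI27 and CXCL10 were high in the centre and in IVDS3, IL6 and IL1B in the centre with IVDS3 near 0, and TWIST1 and PRRX1 in the periphery and IVDS3.

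Stress and immediate early genes, which respond quickly to stress, damage or growth factors, had a median difference of 1.01 beside -0.03 over all genes. Of 22 measured members 7 were called higher in the centre and 0 lower, and all 22 differences were positive. GADD45B, a growth-arrest and damage-inducible gene, read 1.22 and 2.33 on the centre arrays and -1.80 and -1.35 on the periphery arrays (10.2-fold, 3.35 ± 0.47, adjusted p = 0.00357). The CDK inhibitor CDKN1A read 1.38 and 1.82 against 0.20 and -0.25 (3.08-fold, 1.62 ± 0.21, adjusted p = 0.00252). Both were stable, while the stress transcription factors DDIT3 (2.56 ± 0.43, adjusted p = 0.00785) and KLF6 (2.08 ± 0.37, adjusted p = 0.011) were not called without centre replicate 2 or periphery replicate 1 (adjusted p 0.0587 to 0.0655 and 0.0878 to 0.0913). FOS, chosen after its values were seen, differed by 2.44 with an adjusted p of 0.301. The list median was 0.27 and 0.74 on the centre arrays and -0.84 and -0.25 on the periphery arrays, with -0.74 and 0.13 on the ES arrays, so the replicates of a group were apart. The count of called members was 2 without centre replicate 2, 2 without periphery replicate 1 and 12 without either ES array. The part of this stress signal in the other differences was not tested.

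Targets and partners of the Hippo pathway, in which YAP and TEAD factors read cell density and stretch, were higher for 7 of 22 members and lower for 2, with a median of 0.54. ANKRD1, a direct YAP target, read 2.27 and 2.09 on the centre arrays and -1.55 and -0.59 on the periphery arrays (9.53-fold, 3.25 ± 0.27, adjusted p = 0.000459), and the coagulation initiator F3 read 0.80 and 1.72 against -1.92 and -1.23 (7.14-fold, 2.84 ± 0.32, adjusted p = 0.00143). These 2 and VGLL1 were stable, and the called count was 3 without centre replicate 2 and 4 without periphery replicate 1. For ANKRD1, IVDS3 read 0.05 and -0.05, about the level of whole IVDS2 cultures (0.36 and 0.14). Other members pointed to the centre but were not called, such as CCN1 (2.02 ± 0.74, adjusted p = 0.126), CCN2 (0.55 ± 0.20, adjusted p = 0.128) and AMOTL2 (0.68 ± 0.40, adjusted p = 0.337). CCN1, CCN2 and AMOTL2 were chosen after their values were seen. YAP1 itself was lower in the centre (-0.52 ± 0.12, adjusted p = 0.0316), as was TEAD2 (-0.37 ± 0.10, adjusted p = 0.0484). The YAP1 call was lost without centre replicate 2 or any periphery or IVDS3 array (adjusted p 0.0577 to 0.257), the TEAD2 call without any 1 of the 8 arrays outside ES (adjusted p 0.0724 to 0.316), and for each gene the 4 probe sets did not all point the same way.

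In the WNT pathway 6 of 54 measured members were higher in the centre and 6 lower, beside 5.64% and 3.95% of all genes. The list median was -0.06, near the -0.03 over all genes, so single members are described and not a shift of the pathway. SFRP1, a secreted inhibitor that binds WNT ligands, read -1.38 and -2.77 on the centre arrays and 1.10 and 0.54 on the periphery arrays (7.42-fold lower, -2.89 ± 0.38, adjusted p = 0.00277). SFRP2 read -0.96 and -1.99 against 1.05 and 1.28 (-2.64 ± 0.29, adjusted p = 0.00148), and the receptor FZD7 -0.97 and -1.92 against 0.33 and 0.16 (-1.69 ± 0.26, adjusted p = 0.0051). These 3 were called whichever array was left out, although FZD7 was not called with only the 4 arrays compared. The ligands WNT6, given above, and WNT10A were higher in the centre, WNT10A at 1.06 and 2.22 against -0.28 and -0.23 (1.90 ± 0.34, adjusted p = 0.0104). KREMEN2, a receptor for the DKK inhibitors, was also higher (1.57 ± 0.28, adjusted p = 0.0105), and the potentiating ligand RSPO2 was lower (-1.81 ± 0.42, adjusted p = 0.0315). The last 3 lost their calls with 1 array removed, WNT10A without either periphery array (adjusted p 0.0539 to 0.0727), KREMEN2 without periphery replicate 1 (adjusted p = 0.0865) and RSPO2 without centre replicate 2 or any periphery or IVDS3 array (adjusted p 0.055 to 0.238). The pathway count of higher members was 3 without centre replicate 2 or periphery replicate 2 and 1 without periphery replicate 1, and that of lower members was 10 without centre replicate 1 and 3 without centre replicate 2 or any periphery or IVDS3 array.

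In the BMP and TGF-beta pathway 8 of 47 members were higher in the centre and 2 lower, beside 5.64% and 3.95% of all genes. BAMBI, a decoy receptor, read 1.29 and 1.54 on the centre arrays and -1.04 and -0.33 on the periphery arrays (4.31-fold, 2.11 ± 0.28, adjusted p = 0.00283). TGFBI, a secreted matrix protein induced by TGF-beta, read 1.51 and 2.11 against 0.16 and -0.83 (4.42-fold, 2.15 ± 0.32, adjusted p = 0.005), with the periphery arrays apart but both below the centre. The BMP-binding BMPER was lower in the centre, at 0.34 and -0.36 against 1.20 and 1.37 (-1.30 ± 0.21, adjusted p = 0.00629), though not called with only the 4 arrays compared. These 3 were stable, while the inhibitory SMAD7 (2.07 ± 0.33, adjusted p = 0.00658) and the stress-induced ligand GDF15 (2.24 ± 0.36, adjusted p = 0.00714) were not called without periphery replicate 1 (adjusted p = 0.0605 and 0.0633). The activin antagonist FST was lower (-1.91 ± 0.48, adjusted p = 0.0411), and only the removal of an ES array or of centre replicate 1 left it called (adjusted p 0.0513 to 0.233 without the others). The count of higher members was 4 without periphery replicate 1 and 5 without periphery replicate 2, and that of lower members was 1 without any 1 array of whole IVDS2, periphery or IVDS3 or without centre replicate 2.

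In the FGF and ERK pathway 1 of 30 members was higher and 5 were lower, beside 5.64% and 3.95% of all genes. FGF2, the factor that also stood in the ES medium, read -0.22 and -0.90 in the centre and 1.02 and 0.74 in the periphery (2.71-fold lower, -1.44 ± 0.28, adjusted p = 0.0161). The ES arrays read 1.87 and 1.91, so the order was ES, periphery and centre, but the call was lost without centre replicate 2 or either periphery array (adjusted p 0.0532 to 0.121). The higher member was FLRT2, a receptor-binding membrane protein (1.82 ± 0.23, adjusted p = 0.00252), which was stable. The count of lower members was 0 without centre replicate 2 or periphery replicate 2, 1 without periphery replicate 1, 2 without either IVDS3 array and 3 without either whole-culture array, and that of higher members was 2 without centre replicate 1.

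Pluripotency genes were lower in the centre for 8 of 22 measured members and higher for 0, with a list median of -0.23. POU5F1, which encodes OCT4, read -0.50 and -3.38 on the centre arrays and 1.85 and 1.10 on the periphery arrays (10.6-fold lower, -3.41 ± 0.79, adjusted p = 0.0305). The ES arrays read 2.98 and 3.30 and the IVDS3 arrays -4.55 and -4.37, so both areas lay between, with the periphery nearer to ES cells. The centre replicates were far apart, and the call was lost without centre replicate 2 or any periphery or IVDS3 array (adjusted p 0.0549 to 0.168). SOX2 gave the stable difference of the core factors, with -0.01 and -0.56 in the centre and 1.27 and 1.11 in the periphery (2.78-fold lower, -1.47 ± 0.21, adjusted p = 0.00416). The de novo DNA methyltransferase DNMT3B read -0.60 and -1.62 against 1.29 and 0.90 (-2.21 ± 0.37, adjusted p = 0.00794, but 0.0692 without periphery replicate 1) and the chromatin-associated DPPA4 -0.23 and -2.23 against 1.47 and 1.06 (-2.50 ± 0.53, adjusted p = 0.0226, but 0.0733 to 0.133 without either periphery array). NANOG was not called (0.47 ± 0.19, adjusted p = 0.165), and its ES arrays read -0.70 and -1.37, below all other arrays, which is against its known place as an ES-cell gene. It was called higher in the centre when either ES array was left out (adjusted p = 0.0356). The count of lower members was 4 without centre replicate 2, 2 without periphery replicate 1, 5 without periphery replicate 2 and 5 without either IVDS3 array.

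Genes of the neural plate and neurons were lower in the centre for 5 of 23 members and higher for 0, and this list shares SOX2 with the one above. SOX3 read -0.41 and -0.54 on the centre arrays and 0.45 and 0.59 on the periphery arrays (-0.99 ± 0.11, adjusted p = 0.00127) and was stable. The forebrain factor EMX2 read 0.24 and -0.24 on the centre arrays and 1.80 and 1.86 on the periphery arrays (3.56-fold lower, -1.83 ± 0.32, adjusted p = 0.00902), a call lost without centre replicate 2 or either periphery array (adjusted p 0.0543 to 0.0732), as was that of ZIC2 (-0.76 ± 0.13, adjusted p = 0.0102, then 0.0512 to 0.0916). For EMX2 the periphery stood above the ES arrays (-0.70 and -1.74). PAX6, a landmark of neural cells, read 0.11 and 0.82 in the centre and 0.01 and 0.87 in the periphery and was not called (0.02 ± 0.48, adjusted p = 0.986). The neural markers PAX6, LMX1A, DCX and STMN2 gave 0 calls of 4, with a median of 0.23. Neuronal genes of the list pointed the other way without a call. Examples, chosen after their values were seen, are STMN2 (1.58 ± 0.60, adjusted p = 0.137), ELAVL4 (0.54 ± 0.30, adjusted p = 0.301) and DCX (0.44 ± 0.30, adjusted p = 0.407). The lower calls of the list are therefore not read as a result about neurons. The list count was 2 without centre replicate 2 or either periphery array.

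Cell cycle genes were lower in the centre for 8 of 32 members and higher for 1. Their median was -0.47 beside -0.03 over all genes, and 6 of 32 differences were above 0. The higher member was the CDK inhibitor CDKN1A, given above. The replication-licensing helicase subunit MCM3 read -0.75 and -1.47 on the centre arrays and 0.0017 and -0.0017 on the periphery arrays (2.15-fold lower, -1.11 ± 0.23, adjusted p = 0.0194), MCM2 differed by -1.11 ± 0.23 (adjusted p = 0.0216), MCM5 by -0.99 ± 0.22 (adjusted p = 0.0266) and the origin-loading factor CDC6 by -1.17 ± 0.28 (adjusted p = 0.0341). In IVDS3 MCM3 stood lower still, at -3.17 and -2.82. None of the 8 was called without centre replicate 2 or either periphery array, where the count was 0, and it was 5 without either array of whole IVDS2 cultures or of IVDS3. The adjusted p for MCM3 in the fits that lost it was 0.0882 to 0.107.

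Mesenchymal and matrix genes split between the areas. TWIST1, a transcription factor of mesenchyme and neural crest, read -0.92 and -1.14 on the centre arrays and 2.34 and 1.41 on the periphery arrays (7.5-fold lower, -2.91 ± 0.35, adjusted p = 0.00213) and was stable. The periphery stood above the ES arrays (-0.44 and 0.52) and above whole IVDS2 cultures (-1.56 and -1.26), which lay below both centre arrays. The limb and craniofacial mesenchyme factor PRRX1 read -0.43 and -0.41 on the centre arrays and 1.30 and 0.39 on the periphery arrays (-1.27 ± 0.30, adjusted p = 0.0347), but it was not called without either centre array or periphery replicate 1 (adjusted p 0.0734 to 0.19). The fibrillar collagen COL1A2 had the opposite order, at 1.19 and 0.86 in the centre and -1.12 and -0.93 in the periphery (4.15-fold, 2.05 ± 0.16, adjusted p = 0.000329), and so had the matrix proteoglycan LUM (5.13-fold, 2.36 ± 0.21, adjusted p = 0.000598). COL1A1, the partner chain of COL1A2, was not called (-0.05 ± 0.24, adjusted p = 0.924, 2 probe sets of opposite sign). Over the fibroblast list 5 of 27 members were higher in the centre and 3 lower, beside 5.64% and 3.95% of all genes. Vimentin, VIM, was not called (-0.16 ± 0.29, adjusted p = 0.795), and THY1, a surface marker of fibroblasts, was lower in the centre (-0.61 ± 0.14, adjusted p = 0.0277), not without either centre array or periphery replicate 1 (adjusted p 0.0661 to 0.182). The fibroblast count was 3 higher without periphery replicate 1, and 1 lower without either centre array or periphery replicate 1. Of 7 measured fibroblast markers 3 were higher and 2 lower, and their median was 0.11 and -0.03 on the centre arrays, -0.11 and -0.38 on the periphery arrays and 1.00 and 0.87 on the IVDS3 arrays. Human co-culture cells or mouse feeders carried into a sample could add to such genes, and their part was not tested.

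Among matrix genes 8 of 36 were higher in the centre and 4 lower, beside 5.64% and 3.95% of all genes. HAPLN1, a protein that links hyaluronan to proteoglycans, read 1.90 and 1.44 on the centre arrays and -0.34 and 0.34 on the periphery arrays (3.18-fold, 1.67 ± 0.27, adjusted p = 0.00687, but 0.0539 without periphery replicate 1). It read 2.27 and 2.37 in whole IVDS2 cultures, above the centre, and -4.90 and -4.59 in ES cells. Its partner the proteoglycan versican, VCAN, was lower in the centre, at -0.35 and -0.83 against 0.94 and 1.05 (-1.58 ± 0.23, adjusted p = 0.00446), as was matrilin MATN2 (-1.43 ± 0.20, adjusted p = 0.00353), and both were stable. The matrix count was 3 higher without centre replicate 2 and 1 without periphery replicate 1, and 2 lower without centre replicate 2 or periphery replicate 2. Proteases and their inhibitors were higher for 6 of 26 members and lower for 1. TIMP3, a matrix-bound inhibitor of metalloproteases, read 1.00 and 2.36 on the centre arrays and -2.36 and -1.44 on the periphery arrays (11.98-fold, 3.58 ± 0.49, adjusted p = 0.00318), the protease ADAMTS1 differed by 3.18 ± 0.39 (adjusted p = 0.00227) and the plasminogen activator PLAU by 2.55 ± 0.35 (adjusted p = 0.00317). These 3 were stable, and the lower member, ADAMTS9 (-0.70 ± 0.19, adjusted p = 0.0493), stayed called only without an ES array or centre replicate 1 (adjusted p 0.0585 to 0.371 without the others). Of the integrin and adhesion list 5 of 25 were higher and 3 lower, with the tetraspanin CD9 stable at 1.24 ± 0.17 (adjusted p = 0.00388) and the protocadherin PCDH8 lower at -2.30 ± 0.48 (adjusted p = 0.0206, lost without centre replicate 2 or either periphery array, adjusted p 0.0672 to 0.124). The adhesion counts were 3, 2 and 1 higher without centre replicate 2, periphery replicate 1 and periphery replicate 2, and 0 lower without any of these 3 or 1 without either IVDS3 array.

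Few liver genes were called between the areas. Of 29 measured hepatoblast and fetal liver genes 1 was higher in the centre and 1 lower, with a median of 0.06, and of 19 mature hepatocyte genes 0 were higher and 1 lower, with a median of -0.06. These calls, 2 of 29 and 1 of 19, stand beside 9.59% of all genes called, and nothing about liver genes is read from them. At an unadjusted p under 0.05 the same limma fit gave 5 and 2 genes, and 0 of the 6 hepatic markers AFP, APOA1, APOB, FGB, SERPINA1 and AHSG were called. Alpha-fetoprotein, AFP, read -0.19 and -0.14 on the centre arrays and 0.01 and 0.12 on the periphery arrays (-0.23 ± 0.12, adjusted p = 0.276). APOB read -0.03 and -0.03 against 0.0015 and 0.12 (-0.09 ± 0.15, adjusted p = 0.779), SERPINA1 differed by 0.23 ± 0.12 (adjusted p = 0.25) and FGB by 0.33 ± 0.85 (adjusted p = 0.862), with 1 whole IVDS2 array at 3.05 for FGB. The higher gene was AMBP (0.92 ± 0.20, adjusted p = 0.0226, with 2 probe sets of opposite sign) and the lower one angiotensinogen, AGT (-1.11 ± 0.29, adjusted p = 0.0431). The canalicular transporter ABCC2 was the mature gene that was lower (-0.89 ± 0.16, adjusted p = 0.0102). None of the 3 was stable, since AMBP was lost without centre replicate 2 or either periphery array (adjusted p 0.0952 to 0.132), AGT without any 1 of the 8 arrays outside ES (adjusted p 0.0587 to 0.211) and ABCC2 without centre replicate 2 or periphery replicate 1 (adjusted p 0.0795 to 0.0804).

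Of 23 endoderm genes 2 were higher and 3 lower, with a median of 0.01. These 5 of 23 stand beside 9.59% of all genes called. Of 17 primitive streak genes 0 were called, against 3 at an unadjusted p under 0.05 in the same limma fit. SOX17 read 0.79 and 0.05 on the centre arrays and -0.39 and 0.10 on the periphery arrays (0.56 ± 0.31, adjusted p = 0.301). FOXA2 read 0.27 and 0.04 against -0.30 and -0.12 (0.37 ± 0.12, adjusted p = 0.0958), GATA6 differed by 0.49 ± 0.56 (adjusted p = 0.657) and GATA4 by -0.05 ± 0.14 (adjusted p = 0.87). The SE of GATA6 is so wide that a 2-fold difference was not detectable for it. The called members of the endoderm list were EPCAM, TBX3, SOX2, FOXA3 and PROX1, and EPCAM, SOX2 and TBX3 stand in other lists as well. TBX3 (0.87 ± 0.17, adjusted p = 0.0155) was not called without centre replicate 2 or either periphery array (adjusted p 0.0809 to 0.128). The endoderm counts were 1 higher without either periphery array and 1 lower without periphery replicate 2, and for the primitive streak 1 was higher without either centre array and 1 or 2 were lower without an ES array or centre replicate 1. FOXA3 read -0.67 and -1.70 in the centre and 0.27 and 0.05 in the periphery (-1.34 ± 0.27, adjusted p = 0.0177, lost without either periphery array, adjusted p 0.0615 to 0.117), and its ES arrays were higher (0.83 and 0.72). PROX1, a liver and lymphatic factor, was lower (-0.53 ± 0.12, adjusted p = 0.0293, lost without either centre array, periphery replicate 2 or either IVDS3 array, adjusted p 0.0549 to 0.16). Of the biliary list 4 of 15 were higher and 3 lower, and the higher ones included KRT7, KRT19 and EPCAM of the epithelial groups. The lower count there was 0 without centre replicate 2 or periphery replicate 2 and 1 without periphery replicate 1 or any whole-culture or IVDS3 array.

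Heart and mesoderm genes were higher for 7 of 26 members and lower for 0, with a median of 0.02. MYL7, an atrial myosin light chain, read 1.24 and 1.30 on the centre arrays and -1.25 and -0.61 on the periphery arrays (2.20 ± 0.40, adjusted p = 0.0121) and the forkhead factor FOXC1 differed by 1.63 ± 0.28 (adjusted p = 0.0086), both lost without centre replicate 2 or periphery replicate 1 (adjusted p 0.0731 to 0.0992 and 0.0692 to 0.0708). ISL1, HAND1 and TBX3 are shared with the trophoblast and amnion list. Without centre replicate 2 the count was 3 and without periphery replicate 1 it was 2. Of the contractile genes 4 of 17 were higher and 1 lower. TPM2, a tropomyosin, was stable (1.37 ± 0.20, adjusted p = 0.00449), with 7 probe sets that did not all point 1 way, and TAGLN was higher (1.14 ± 0.25, adjusted p = 0.0233, lost without centre replicate 2 or periphery replicate 1, adjusted p 0.142 to 0.152). The contractile count of higher genes was 1 without centre replicate 2 and 2 without periphery replicate 1.

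The groups that share no array with the 2 areas were then used to see how the same genes stood elsewhere. Of the 744 genes higher in the centre, 526 (70.7%) were called higher in IVDS3 than in whole IVDS2 cultures and 37 (4.97%) lower, beside 17.6% and 22.2% of all genes (39.7% in either direction). Of the 521 genes lower in the centre, 408 (78.3%) were also lower in IVDS3 and 12 (2.3%) higher. The median IVDS3 minus IVDS2 difference was 1.06 for the first set, -0.83 for the second and -0.10 over all genes. The comparison of whole IVDS2 cultures with ES cells went the same way in smaller numbers, with 251 of the 744 (33.7%) called higher and 21 lower (6.5% and 6.23% of all genes), and with 155 of the 521 (29.8%) called lower and 27 higher. All comparisons share 1 estimate of each gene's spread, so a gene with a small spread is more readily called in several. GABRP, for instance, differed by 4.10 ± 0.23 between IVDS3 and whole IVDS2 cultures (adjusted p = 4.76e-06), SFRP2 by -4.09 ± 0.29 (adjusted p = 1.64e-05) and LUM by 5.22 ± 0.21 (adjusted p = 5.94e-07).

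In the 2 comparisons 49 genes were called in opposite directions. A further 181 of the 744 higher and 101 of the 521 lower genes were not called between the stages. Among the genes named in this paragraph, only IL6, HHIP, C5, TWIST1 and UBE2L6 were stable between the areas. Genes higher in the centre and lower in IVDS3 than in whole IVDS2 cultures included IL6 (-0.61 ± 0.18, adjusted p = 0.0245), DLX3 (-1.14 ± 0.33, adjusted p = 0.0219), MSX2 (-1.02 ± 0.25, adjusted p = 0.00963), HAND1 (-1.11 ± 0.27, adjusted p = 0.0103) and HAPLN1 (-3.42 ± 0.27, adjusted p = 2.53e-05). The hedgehog-binding HHIP was of the same kind, with 1.40 ± 0.19 between the areas (adjusted p = 0.00334) and -0.92 ± 0.19 between the stages (adjusted p = 0.00483), and so was complement C5, chosen after its values were seen, with 2.21 ± 0.21 and -0.95 ± 0.21 (adjusted p = 0.000759 and 0.00578). Genes lower in the centre and higher in IVDS3 included TWIST1 (2.05 ± 0.35, adjusted p = 0.0018), PRRX1 (1.86 ± 0.30, adjusted p = 0.00133), AGT (0.85 ± 0.29, adjusted p = 0.0412) and UBE2L6 (3.09 ± 0.19, adjusted p = 7.48e-06).

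**Figure D5:**
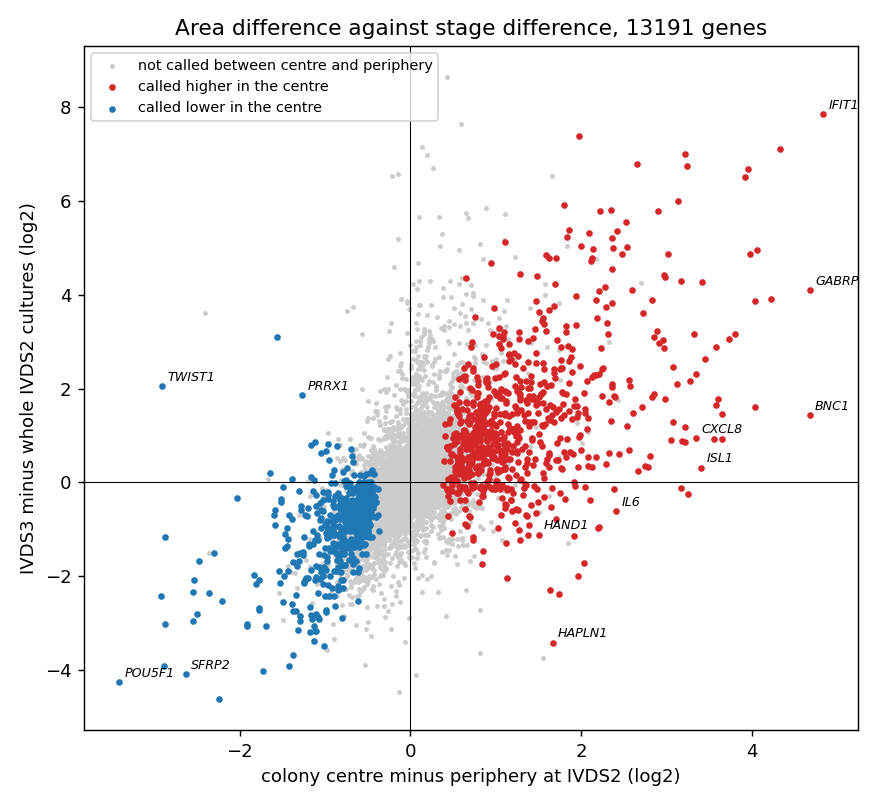
Centre minus periphery at IVDS2 (x axis, log2) against IVDS3 minus whole IVDS2 cultures (y axis, log2) for 13191 genes. Red and blue points were called higher and lower in the centre and grey points were not called. Of the red points 526 of 744 were also called higher in IVDS3 and of the blue points 408 of 521 lower, and TWIST1 and PRRX1 stand in the upper left.

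Whole IVDS2 cultures fell between the 2 area means for 571 of the 744 higher genes and 425 of the 521 lower ones. These genes were chosen for a gap between the areas, so another group readily falls inside it. The share over all genes was not counted, and the counts do not show that whole cultures are a mixture. With the periphery set to 0 and the centre to 1, the median position of the whole cultures was 0.34 for the higher and 0.35 for the lower genes, and they were nearer to the periphery for 495 and 354 genes. By the same order, limma called 767 genes between the centre and whole cultures (5.81%) and 182 between the periphery and whole cultures (1.38%). Since the 2 areas share the whole-culture arrays in these counts, they are not independent of each other. Genes outside the range of the 2 areas included HAPLN1 and TWIST1, for which whole cultures lay beyond the centre, and MCM5, which read 0.12 and 0.47 in whole cultures, above the periphery (-0.02 and 0.02) and the centre (-0.71 and -1.26).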

How the data were processed

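RNA of 10 samples was measured on Affymetrix rhesus macaque arrays. The authors deposited log2 values made with RMA, per the submitters' processing notes, which give no version. The log base was read from the values. The median of every probe set over the 10 arrays is 0 (largest 5e-07), so no absolute level is known.

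Control probe sets (84) were left out, and 44210 were tested. By the platform annotation 22802 had 1 gene, 316 several and 21092 none, and 22507 had their gene number in the RefSeq table, where 0 symbols differed. A gene's value is the mean of its probe sets (13191 genes, 7438 with 1 probe set).

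All 10 arrays were fitted in limma 3.58.1 (R 4.3.3) with a term per group and moderated by empirical Bayes (residual degrees of freedom 5, prior degrees of freedom 3.94). Genes were called at a Benjamini-Hochberg adjusted p under 0.05. Folds are 2 to the power of the log2 difference. On simulated data for this comparison (13191 genes, 100 changed 2-fold and 100 changed 4-fold) 86% and 97% were recovered and 1.61% of calls were false. The simulated noise was independent between genes, with the same spread in every group. It held no shift common to a whole array, such as that of centre replicate 2. These rates therefore cannot be taken as those of the calls made here. The small number of arrays limits the precision. The labels tie no replicate number of the centre to that of the periphery.

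Named genes are the 12 largest rises and falls among called, named genes whose arrays do not overlap, up to 4 called members of each of 37 lists (1154 genes, 835 measured) in each direction, and 25 measured landmark genes. Any other gene is marked in the text. The members of the comparison, the lists and the landmarks were chosen with earlier results of these data known. Alternatives were centring each array, fitting only the 4 arrays, the replicate number as a block, a robust prior, the most variable probe set, leaving out probe sets that can match several transcripts, a 2-fold minimum, and leaving out each array. A filter on dim probe sets was not possible on centred values. No genome was used, so no coordinates or sequences are given.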

Additional observations from a re-analysis of the deposited data

How the results depend on the processing

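More genes and probe sets were called higher than lower in the centre under every alternative run, while among the genes shared with the stages the lower ones were more numerous without centre replicate 1 (648 beside 621). With a 2-fold minimum 549 genes and 1508 probe sets were called between the areas, and 348 genes were also called the same way between IVDS3 and whole IVDS2 cultures (934 without the minimum). With only the 4 arrays compared 614 genes and 1685 probe sets were called, beside 1265 and 2582, and the share of genes higher in the centre was 71.7% beside 58.8% (76.7% with the 2-fold minimum). Of the 1265 genes 549 (43.4%) were called in the fit of 4 arrays, and of the 159 named genes 60 lost their call there. Of the 61 named genes called whichever array was left out, 4 (IFIT1, IFIT3, BMPER and FZD7) were not called there. For the count shared with the stages that fit could not be made. Leaving out each array in turn gave 348 to 1612 genes, 684 to 3418 probe sets and 267 to 1269 genes shared with the stages, and the share of genes higher in the centre was 84.8%, 77.9% and 80.9% without centre replicate 2, periphery replicate 1 and periphery replicate 2. Where 1 array of a group was left out, the lone array was assumed to vary like the other groups. Without centre replicate 2 the named genes lost 67 calls, without periphery replicate 1 they lost 79 and without periphery replicate 2 they lost 53, of 159 named genes. With the replicate number as a block 1441 genes were called (795 higher and 646 lower), 1202 of them among the 1265, and 7 named genes lost and 1 gained a call. The replicate differences of the 2 areas correlated at 0.22 over genes, from only 2 numbers, so the numbers were not taken as pairs. Centring each array gave 1218 genes, the robust prior 1260, the most variable probe set 1220 and leaving out probe sets of several transcripts 1235. No called gene among those named changed sign in these fits, while COL1A1, GATA4, GATA6, PAX6 and VIM, which were not called, changed sign with 1 array of the areas left out. The cause of these changes was not tested. Groups of 2 arrays allow no test for an outlying array.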

Other observations

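Several smaller pathway lists were measured beside those described. In the Notch pathway 4 of 23 members were higher in the centre and 2 lower, beside 5.64% and 3.95% of all genes. The stable one was HEY1, a transcriptional target of Notch, which read 0.75 and 0.69 on the centre arrays and -1.45 and -0.70 on the periphery arrays (3.47-fold, 1.80 ± 0.26, adjusted p = 0.00419), and the ligands JAG1 (-0.71 ± 0.15, adjusted p = 0.0236) and JAG2 (0.90 ± 0.24, adjusted p = 0.0495) were called in opposite directions. JAG1 lost its call without centre replicate 2 or periphery replicate 2 (adjusted p 0.127 to 0.152) and JAG2 without any array except centre replicate 1 (adjusted p 0.0593 to 0.298). The Notch counts were 1 higher without centre replicate 2 or periphery replicate 1, 2 without periphery replicate 2 or either IVDS3 array, and 0 lower without centre replicate 2 or periphery replicate 2. In the retinoic acid pathway 3 of 18 members were higher and 0 lower, beside the same shares of all genes. The retinol importer STRA6 differed by 1.25 ± 0.25 (adjusted p = 0.0171, lost without centre replicate 2 or periphery replicate 1, adjusted p 0.122 to 0.128), the reductase DHRS3 by 1.01 ± 0.17 (adjusted p = 0.00891, lost without periphery replicate 1, adjusted p = 0.0726) and the secreted RARRES2 by 2.39 ± 0.48 (adjusted p = 0.0176, lost without centre replicate 2 or either periphery array, adjusted p 0.0871 to 0.109). The count was 5 without centre replicate 1, 1 without centre replicate 2 and 0 without periphery replicate 1. Among axon guidance genes 3 of 41 were higher and 0 lower, beside 5.64% and 3.95% of all genes. The count is near that background, and nothing about the list is read from it. The semaphorin SEMA3A read 0.41 and 0.88 in the centre and -0.89 and -1.26 in the periphery (3.29-fold, 1.72 ± 0.20, adjusted p = 0.00165), and SEMA3D 1.42 and 1.60 against -0.57 and -0.55 (4.19-fold, 2.07 ± 0.28, adjusted p = 0.00287, with 3 probe sets that did not all point 1 way). Without either ES array 6 were higher and 2 lower, and without centre replicate 1, 1 was lower. Among hypoxia genes 1 of 17 was higher and 2 were lower, beside 5.64% and 3.95% of all genes. The higher one, EPAS1, which encodes an oxygen-regulated transcription factor, read 1.53 and 2.43 on the centre arrays and -0.77 and -0.98 on the periphery arrays (7.24-fold, 2.86 ± 0.28, adjusted p = 0.000945) and was stable, while the hypoxia-induced CA9 was lower (-0.55 ± 0.13, adjusted p = 0.0354, lost without centre replicate 2 or any periphery or IVDS3 array, adjusted p 0.062 to 0.274). The hypoxia counts were 3 higher without either ES array and 2 without either whole-culture array, and 0 lower without centre replicate 2 or either periphery array or 1 without either IVDS3 array.

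Other lists gave few or no calls. With 9.59% of all genes called, a list of this size holds few calls in any case. Nothing about the members is read from these counts. The limma fit called 0 of 23 HOX and MEIS genes (2 at an unadjusted p under 0.05), 0 of 22 genes of endothelium and blood (3 at that p) and 0 of 22 cytosolic ribosomal protein genes (4 at that p). Without centre replicate 1 there were 1 higher and 1 lower for endothelium and blood and 1 higher and 2 lower for ribosomal genes, and without either ES array 1 HOX or MEIS gene was lower. The respiratory chain list had 1 call of 23, COX7A2 (0.55 ± 0.14, adjusted p = 0.0411, lost without centre replicate 2 or any periphery or IVDS3 array, adjusted p 0.0702 to 0.31). Of 16 glycolysis genes 1 was called, PFKP (0.77 ± 0.19, adjusted p = 0.0369, lost without any 1 of the centre, periphery or IVDS3 arrays, adjusted p 0.054 to 0.251), and of 21 cholesterol and lipid genes 1 was higher, INSIG1 (1.57 ± 0.41, adjusted p = 0.0473), and 1 lower, ELOVL6 (-0.94 ± 0.22, adjusted p = 0.0315). INSIG1 lost its call without any 1 of the centre, periphery or IVDS3 arrays (adjusted p 0.0513 to 0.313) and ELOVL6 without centre replicate 2 or either periphery array (adjusted p 0.105 to 0.194).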
